A study of Homo sapiens with 6 samples.

Results

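Epithelial junction and keratin genes are described here as a set of 37 genes, matched by symbol among the 58735 genes of an RNA-seq count table from Huh7 cells. Huh7 is an established human hepatocellular carcinoma line, grown in RPMI-1640 with fetal bovine serum. One group of 3 libraries (labelled shcontrol) carried a control short hairpin RNA, and the other group of 3 (labelled shITGB5) carried a hairpin against ITGB5, the integrin beta 5 subunit. No drug or other agent is named for either group. How many hairpins or clones stand behind a group is not stated. The question of the series is how ITGB5 knockdown alters gene expression in these cells.

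Epithelial cells are held together by adherens junctions, tight junctions and desmosomes, and are coupled by gap junctions. In adherens junctions, cadherins bind across the cell border and catenins link their tails to actin. Tight junctions close the space between cells, and in liver they seal the bile canaliculus. Claudins and MARVEL proteins form their strands and zonula occludens (ZO) proteins anchor them. Desmosomes tie desmosomal cadherins to keratin filaments through plakoglobin, plakophilins and desmoplakin. Hepatocytes are known for a simple keratin pair, KRT8 with KRT18. KRT19 is better known from bile ducts and from some hepatomas.

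Levels are given as CPM, counts per 1000000 after library scaling, or as FPKM, which also divides by gene length and is used when genes are compared with each other. That length covers the merged exons of all annotated transcripts of a gene, and can exceed the length of the mRNA made. Rankings and ratios between genes by FPKM therefore depend on the annotation too. Library totals ran from 15777922 to 18011313 counts, so a count of 0 allows up to 0.167 to 0.190 CPM (3 counts, for counting error only). The labels give liver as the tissue of every library. Separate cultures are not named for the replicates, and the p-values then reflect only library-to-library spread, part or all of which may be technical. A change is called where edgeR's quasi-likelihood test gave a Benjamini-Hochberg adjusted p under 0.05 over 16577 genes. Intervals are 95% intervals of the fit, and every mean ± SD has n = 3.

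ITGB5 itself was lower in each shITGB5 library than in any control library, but most of its mRNA remained. It lay at 205, 214 and 217 CPM in the controls and at 173, 181 and 174 CPM with the hairpin. ITGB5 fell by 16.8% (interval -20.4% to -13.1%, edgeR adjusted p = 2.85e-11).

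Of the 37 genes, 35 were abundant enough to be tested, and 12 changed: 6 rose and 6 fell. That is 34.3% of the tested members, beside 15.5% of all genes tested (8.54% rose and 6.96% fell). Abundant genes are called more often: among genes with a mean of at least 10 CPM, a level chosen after the data were seen, 23.5% were called, and 12 of the 33 members at that level (36.4%). The changes were small, between 4.64% for CLDN1 and 31.5% for KRT23. The median log2 change was 0.04 over the 35 tested members and -3.6e-05 over all genes tested. The groups of libraries did not overlap for 18 of the 35 members (51.4%), beside 28.5% of all genes tested. These are the 12 called members and NECTIN2, AFDN, CLDN7, F11R, CRB3 and DSC2. In bulk RNA, fewer cells that express a gene and less RNA per cell cannot be told apart.

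E-cadherin and connexin 43 mRNA rose while alpha-catenin, p120-catenin, plakoglobin, occludin and desmoplakin mRNA fell. CDH1 (E-cadherin), GJA1 (connexin 43), KRT23, CLDN6, PKP2 and CLDN1 were the members that rose. The members that fell were OCLN, CLDN12, JUP, CTNNA1, DSP and CTNND1. The main hepatocyte keratins KRT8 and KRT18 and the bile duct keratin KRT19 did not pass the test.

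**Figure D1:**
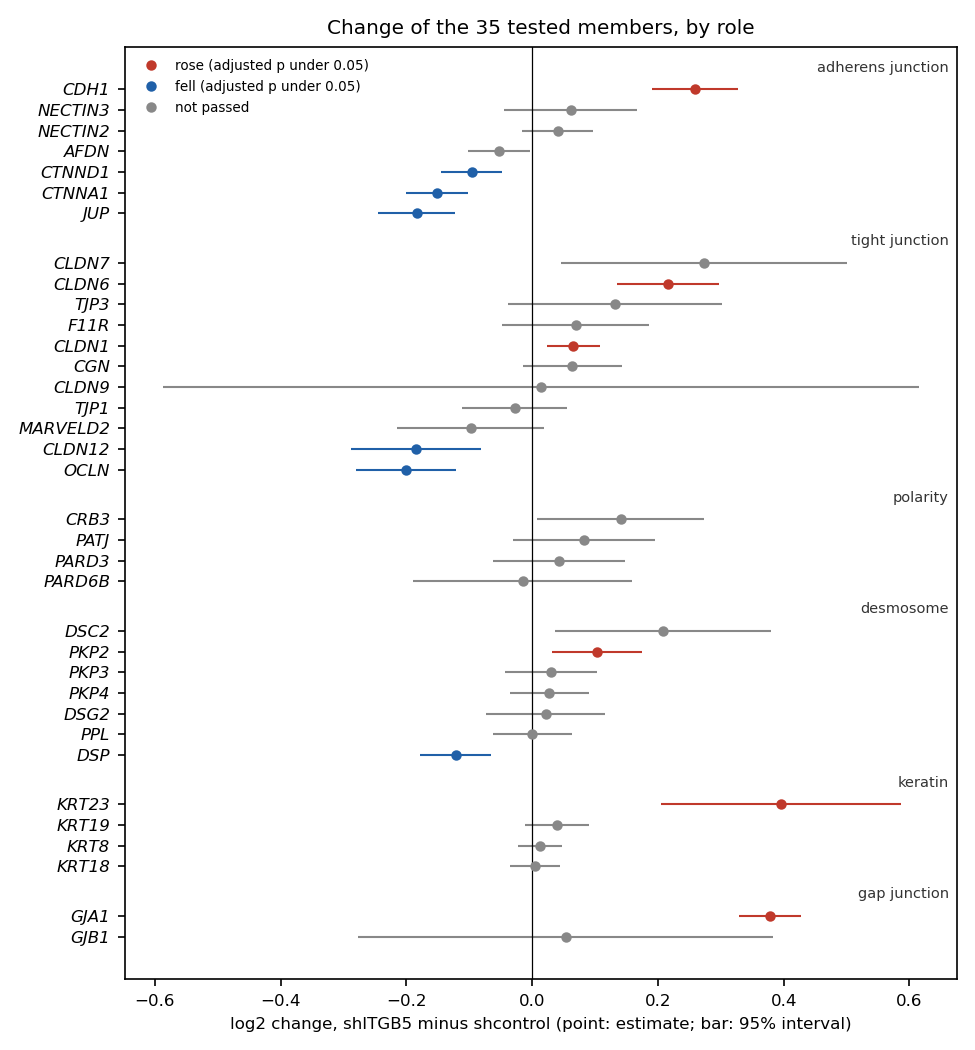
Log2 change (shITGB5 minus shcontrol, horizontal axis) of the 35 tested members, grouped by role, with the 95% interval of the fit as a bar. Red points rose, blue points fell and grey points did not pass; CDH1 and 3 catenins lie on opposite sides of 0, and the intervals of KRT8 and KRT18 are the narrowest.

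Some of these genes carry sequence features worth seeing beside their values. In an earlier look at these data, the words AGACCAA and GACCAAA were common in the 3′ untranslated regions of genes that fell, and TCGGAGA and CGGAGAA in those of genes that rose. The former pair occurs in 2089 of 13241 tested genes with an annotated 3′ untranslated region (15.78%, 1 transcript per gene), of which 369 fell and 142 rose. Genes with these words had longer regions (median 2670.0 bases against 884 without them), and the part of length in that difference was not tested. The words came from these same data, so the split into 369 and 142 gives them no independent support. The former pair occurs in 4 of the 35 tested members (11.43%), and all 4 of them are among the 12 called. Among the 31 tested members without these words, 4 rose and 4 fell. Of all 11152 tested genes without them, 1219 rose and 698 fell. Whether the words bear on the member calls was not tested. The latter pair occurs in 3.35% of the 13241 genes and in 0 of the 35 members. The 5 sites in members are shown because they stand in genes that moved both ways, on the transcript strand with the word in capitals and up to 9 bases on either side (GENCODE 29).
CTNNA1: cttttaaatGACCAAAgatgacctg
JUP: tttttgtatAGACCAAAgcaaagaaa
CLDN1, first site: tttctgcatGACCAAAgtgataaat
CLDN1, second site: cctggaaacAGACCAAtagacattt
PKP2: tacaaaatgAGACCAAA
CTNNA1 and JUP fell, whereas CLDN1, with 2 sites, and PKP2 rose. These rises are the less stable calls. Leaving aside the test against a fold minimum, the CLDN1 call was lost in 4 of 13 alternative settings and that of PKP2 in 6 of 13. Their log2 changes were at lowest 0.054 and 0.088 in these settings. The calls of CTNNA1 and JUP were lost in 0 of 13. The PKP2 site ends at the last base of its annotated region (1679 bases). OCLN, DSP, CTNND1 and CLDN12 fell and hold neither word. The same words stand in members called in either direction, and with 4 such members no link between word and direction was tested.

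Upstream sequence was read for 25 of the 37 members, which have 40 promoters in RefSeq's table (GRCh38.p14, 250 bases before to 50 after each start). CDH1, CTNND1, CLDN9, F11R, PARD3, PARD6B, PKP2, PKP3, PPL, KRT18, KRT19 and KRT23 have no entry there and were not read. The motif CACCTG, or CAGGTG on the other strand, is an E-box of the kind that SNAI and ZEB proteins can bind. It occurs in 16 of the 40 member promoters (40.0%) and in 20.59% of all 35116 promoters. JUP, DSP and OCLN fell and hold it, and so do CLDN6, which rose, and 10 members that did not pass or were not tested. Of the other called members that were read, CTNNA1 and CLDN12 fell and GJA1 and CLDN1 rose, and none of them holds it. The AP-1 motif TGANTCA occurs in 2 of the 40 member promoters, those of GJA1 and CLDN2, and in 7.71% of all promoters. AACCGGTT, the motif of Grainyhead-like factors, occurs in 0 of the 40 and in 0.13% of all promoters. The 250 bases before the start are printed 5′ to 3′ on the gene's strand, with motifs in capitals, for GJA1, the member with the smallest adjusted p, and for JUP and DSP, partners in the desmosome that fell together.
GJA1, chr6:121435396-121435645, plus strand: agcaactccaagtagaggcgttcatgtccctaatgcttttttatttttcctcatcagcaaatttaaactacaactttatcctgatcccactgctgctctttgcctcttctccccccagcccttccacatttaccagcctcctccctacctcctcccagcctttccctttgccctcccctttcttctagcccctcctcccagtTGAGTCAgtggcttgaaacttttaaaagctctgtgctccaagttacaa
JUP, chr17:41785977-41786226, minus strand: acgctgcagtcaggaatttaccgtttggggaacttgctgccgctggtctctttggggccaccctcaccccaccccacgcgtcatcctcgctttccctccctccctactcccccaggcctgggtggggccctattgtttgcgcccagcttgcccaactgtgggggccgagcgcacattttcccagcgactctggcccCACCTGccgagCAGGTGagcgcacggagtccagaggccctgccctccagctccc
DSP, chr6:7541421-7541670, plus strand: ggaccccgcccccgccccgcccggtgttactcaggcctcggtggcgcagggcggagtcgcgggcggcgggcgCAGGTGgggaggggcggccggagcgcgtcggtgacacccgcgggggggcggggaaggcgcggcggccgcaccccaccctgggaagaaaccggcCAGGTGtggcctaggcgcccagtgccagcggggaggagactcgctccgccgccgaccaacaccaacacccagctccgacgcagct
The AP-1 match of GJA1 begins 48 bases before the start. The E-boxes of this JUP promoter begin 54 and 43 bases before it, and those of DSP 178 and 85 bases before it. The windows of GJA1 and DSP reach past the start of the gene as GENCODE 29 gives it, and that of JUP lies within the gene's span. JUP has another promoter in the table with no match to any of the 3 motifs. A match describes these letters and is not evidence of binding.

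KRT8 was the most abundant per length, at 662 FPKM on average over the 6 libraries, followed by KRT18 (495), CLDN1 (281), KRT19 (207) and GJA1 (143). The catenins lay near each other, with CTNND1 at 59.0 FPKM, CTNNA1 at 55.4 and JUP at 46.4. CDH1, the only classical cadherin among the members, was lower, at 25.7 FPKM. CDH2 (N-cadherin), which is not a member, stood at 54.5 FPKM. Among the claudins, CLDN1 and CLDN6 (57.1 FPKM) stood far above CLDN12 (8.93), CLDN7 (4.80) and CLDN9 (0.842). The desmosomal plaque genes PKP3 (37.0 FPKM), DSP (28.8) and PPL (25.8) exceeded the desmosomal cadherins DSG2 (11.6) and DSC2 (1.58). Together the 37 genes summed to 12053 to 12080.3 CPM in the controls and 12157 to 12287 CPM with the hairpin. Within these sums GJA1 alone went from a mean of 424 CPM in the controls to 551 CPM with the hairpin. KRT8 and KRT18, the largest parts of the sums, did not pass the test.

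**Figure D2:**
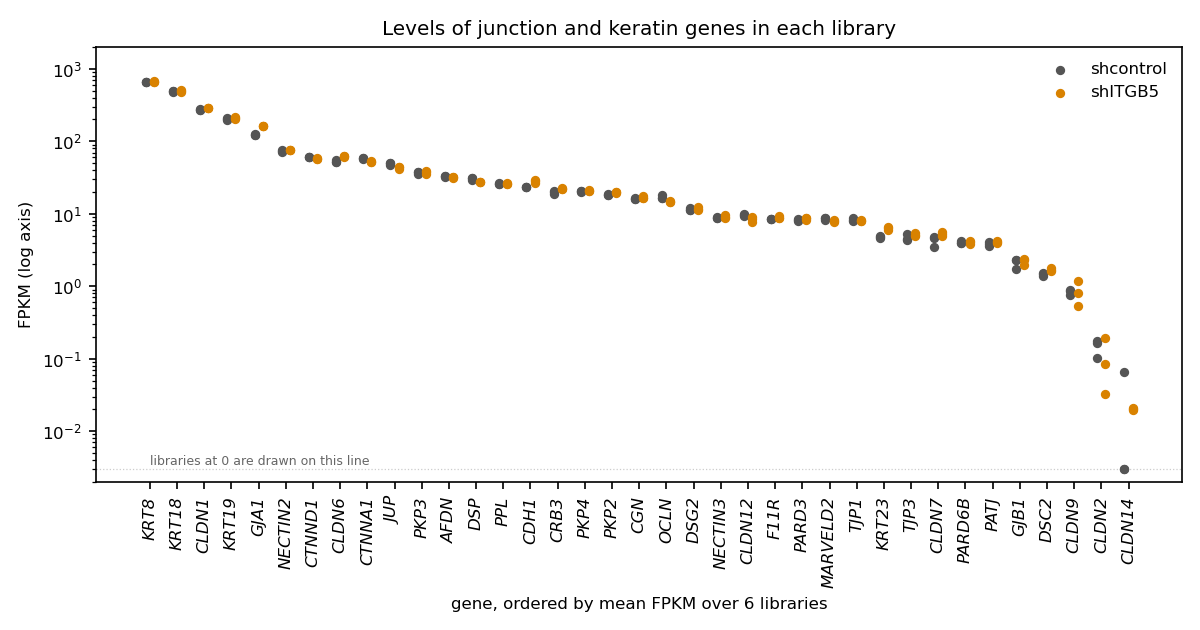
FPKM of each of the 37 members (log axis) in the 3 shcontrol libraries (grey) and the 3 shITGB5 libraries (orange), ordered by the mean over all libraries; libraries with a count of 0 are drawn on the dotted line. KRT8 and KRT18 stand at the top, and CLDN2 and CLDN14 at the bottom.

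Among the adherens junction members, the cadherin CDH1 rose and the 3 catenins fell. CDH1 (ENSG00000039068, chromosome 16, 68737225 to 68835548, plus strand, GRCh38) encodes E-cadherin, the calcium-dependent adhesion receptor of epithelia. It lay at 145, 143 and 145 CPM in the controls and at 172, 166 and 179.9 CPM with the hairpin. All 3 shITGB5 libraries were above all 3 controls, and the controls lay within about 2 CPM of each other. CDH1 rose by 19.7% (interval 14.1% to 25.5%; log2 change 0.26, SE 0.034, adjusted p = 1.03e-09, edgeR).

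CTNNA1 (ENSG00000044115, chromosome 5, 138610967 to 138935034, plus strand) encodes alpha-catenin, which couples the cadherin complex to actin. It lay at 496, 523 and 525 CPM in the controls and at 462, 459 and 469 CPM with the hairpin. CTNNA1 fell by 9.97% (interval -13.0% to -6.81%; log2 change -0.15, SE 0.025, adjusted p = 8.31e-07, edgeR). The lowest control was still above the highest shITGB5 library.

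JUP (ENSG00000173801, chromosome 17, 41754604 to 41786931, minus strand) encodes plakoglobin, a catenin shared by adherens junctions and desmosomes. Its levels were 236, 247 and 248.6 CPM in the controls and 219, 221 and 205 CPM with the hairpin, of which shITGB5 replicate 3 was the lowest. JUP fell by 11.97% (interval -15.6% to -8.15%; log2 change -0.18, SE 0.031, adjusted p = 1.13e-06, edgeR).

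CTNND1 (ENSG00000198561, chromosome 11, 57753243 to 57819546, plus strand) encodes p120-catenin, which keeps cadherins at the cell surface. It lay at 539.6, 538 and 531 CPM in the controls and at 511, 496 and 497 CPM with the hairpin, again without overlap. CTNND1 fell by 6.45% (interval -9.54% to -3.26%; log2 change -0.10, SE 0.024, adjusted p = 0.00195, edgeR).

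The nectins and their adaptor afadin, which form a second adhesion system at the same junction, did not pass the test. AFDN (afadin) lay at 451, 451 and 447 CPM in the controls and at 437, 435 and 428 CPM with the hairpin. These groups did not overlap, but the log2 change of -0.05 had an edgeR adjusted p of 0.163. NECTIN2, the more abundant nectin, lay at 273, 280.1 and 271 CPM and 283, 283 and 282 CPM (log2 change 0.04, edgeR adjusted p = 0.396), and NECTIN3 gave 0.06 (0.528). Summed over the 7 adherens junction members, the level was 2194 to 2235 CPM in the controls and 2114 to 2139.9 CPM with the hairpin.

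Of 11 other adherens junction genes listed, 8 were tested, of which 1 rose, 2 fell and 5 did not pass. That is 37.5% called, beside 15.5% of all genes tested. CTNNB1 (beta-catenin) had a log2 change of -0.07 (edgeR adjusted p = 0.0337), from 538 CPM ± 3 to 512 CPM ± 7.88. That call was lost when any library other than shcontrol replicate 3 or shITGB5 replicate 1 was left out (edgeR adjusted p = 0.0767 to 0.123 in those fits), and with no low-count filter (0.184). VCL (vinculin, an actin linker) had a log2 change of -0.09 (edgeR adjusted p = 0.0232) with overlapping groups. Leaving out shcontrol replicate 2 ended the VCL call (edgeR adjusted p = 0.132), as did leaving out shcontrol replicate 3 (0.0834), leaving out shITGB5 replicate 3 (0.353) and dropping the low-count filter (0.0849). VCL shares 1109 exonic bases with AP3M1 on the other strand. NECTIN1 rose (log2 change 0.19, edgeR adjusted p = 0.0125), a call lost without shcontrol replicate 2 or shITGB5 replicate 2 (0.0853 and 0.0582). CDH2 (N-cadherin), better known from mesenchymal cells and also made by hepatocytes, lay at 268, 274 and 272 CPM in the controls and at 263, 268 and 272 CPM with the hairpin (log2 change -0.02, edgeR adjusted p = 0.749).

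Transcription factors known to hold CDH1 down were listed as well. Of 7 such repressors, 5 were tested, of which 1 rose and 4 did not pass (20% called, near the 15.5% of all genes tested). TCF3 (E2A), a basic helix-loop-helix factor that binds E-boxes, lay at 166, 169.8 and 166 CPM in the controls and at 215, 223 and 202 CPM with the hairpin. TCF3 rose by 27.5% (interval 21.9% to 33.4%; log2 change 0.35, SE 0.033, adjusted p = 1.60e-16, edgeR), and like CDH1 it was higher in every shITGB5 library than in any control. SNAI1 (0.23), SNAI2 (-0.07), ZEB1 (-0.04) and ZEB2 (-0.07) gave edgeR adjusted p-values of 0.384, 0.889, 0.856 and 0.794 for these log2 changes. Of 9 epithelial regulators, 7 were tested: ESRP1, an epithelial splicing factor, rose (0.27, edgeR adjusted p = 0.00495), ELF3, an epithelial ETS factor, fell (-0.11, 0.0279) and 5 did not pass. That is 28.6% called, beside 15.5% of all genes tested. The ESRP1 call was lost without shcontrol replicate 3 (edgeR adjusted p = 0.0743), and the ELF3 call in every fit with 1 library left out except that without shITGB5 replicate 2 (0.0631 to 0.179), and with no low-count filter (0.0872).

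**Figure D3:**
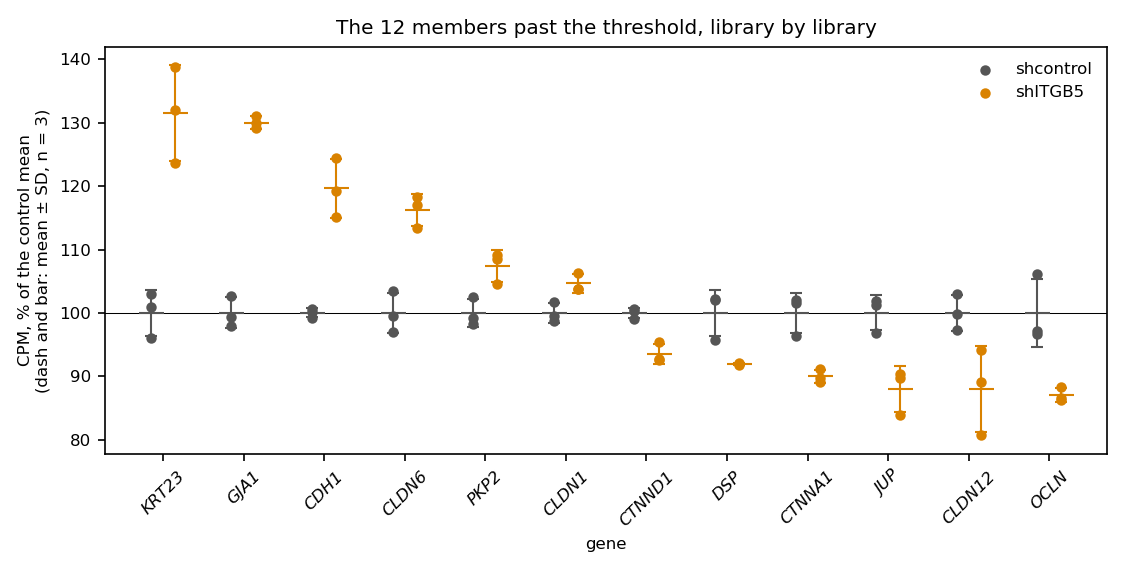
CPM of the 12 members past the threshold, as a percentage of the control mean, in each shcontrol library (grey) and each shITGB5 library (orange); dashes and bars give the mean ± SD of 3 libraries. For each gene the 3 shITGB5 libraries lie on one side of all 3 controls, and GJA1 is the most separated from them.

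Tight junction genes moved in both directions. Of the 13 members, 11 were tested, of which 2 rose, 2 fell and 7 did not pass (36.4% called, beside 15.5% of all genes tested). Their summed level was 1582 to 1622 CPM in the controls and 1635 to 1662 CPM with the hairpin, most of it CLDN1. OCLN (ENSG00000197822, chromosome 5, 69492292 to 69558104, plus strand) encodes occludin, a 4-span MARVEL protein of the strands. It lay at 111, 121 and 110.4 CPM in the controls and at 101, 98.3 and 98.8 CPM with the hairpin. The shITGB5 libraries were within about 3 CPM of each other and below all controls. OCLN fell by 13.0% (interval -17.7% to -8.01%; log2 change -0.20, SE 0.040, adjusted p = 5.89e-05, edgeR). MARVELD2 (tricellulin), which lies upstream of OCLN on chromosome 5 (69415065 to 69444330) and seals corners where 3 cells meet, lay at 43.7, 46.8 and 46.3 CPM and 42.3, 41.3 and 44.1 CPM. Its groups overlapped (log2 change -0.10, edgeR adjusted p = 0.302).

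CLDN6 (ENSG00000184697, chromosome 16, 3014712 to 3020071, minus strand) encodes a claudin known as an oncofetal marker. It lay at 94.9, 89.1 and 91.4 CPM in the controls and at 104, 109 and 107 CPM with the hairpin. CLDN6 rose by 16.2% (interval 9.77% to 22.9%; log2 change 0.22, SE 0.041, adjusted p = 1.95e-05, edgeR), with no overlap. It shares 40 exonic bases with TNFRSF12A, an opposite-strand gene with a log2 change of 0.50 and a count of 121% of that of CLDN6. CLDN9, a paralog on the other strand beside CLDN6, had a far lower level per length (0.842 against 57.1 FPKM), and lay at 1.55, 1.79 and 1.84 CPM and 2.45, 1.09 and 1.65 CPM, with overlap (log2 change 0.01, edgeR adjusted p = 0.984). Reads that fit both paralogs could be assigned either way.

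CLDN1 (ENSG00000163347, chromosome 3, 190305701 to 190322475, minus strand), the main claudin of these cells, lay at 1002, 1025 and 994 CPM in the controls and at 1045, 1045 and 1071 CPM with the hairpin. CLDN1 rose by 4.64% (interval 1.59% to 7.79%; log2 change 0.07, SE 0.022, adjusted p = 0.0237, edgeR). That call was lost on leaving out 1 of shcontrol replicate 1 (edgeR adjusted p = 0.114), shcontrol replicate 3 (0.143) or shITGB5 replicate 3 (0.164).

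CLDN12 (ENSG00000157224, chromosome 7, 90383721 to 90513402, plus strand), a claudin that lacks the usual anchor for ZO proteins, lay at 63.9, 66.0 and 62.3 CPM in the controls and at 60.3, 57.1 and 51.7 CPM with the hairpin. CLDN12 fell by 12.02% (interval -18.1% to -5.48%; log2 change -0.18, SE 0.052, adjusted p = 0.00641, edgeR), and shITGB5 replicate 3 was the lowest. Without that library the call was lost (edgeR adjusted p = 0.154). CLDN12 shares 201 exonic bases on its own strand with CDK14, which had 112% of its counts and a log2 change of 0.77, and 347 with GTPBP10 (40.2% of its counts, log2 change 0.01). The part of these shared bases in the CLDN12 value was not tested.

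The ZO scaffolds and the other strand and adaptor proteins did not pass. TJP1 (ZO-1) lay at 89.5, 92.9 and 97.2 CPM in the controls and at 90.4, 92.9 and 90.7 CPM with the hairpin (log2 change -0.03, edgeR adjusted p = 0.751). CGN (cingulin), an adaptor to actomyosin and the most abundant of these per length, lay at 110.4, 106 and 106 CPM and 110.3, 109.7 and 118 CPM (log2 change 0.06, edgeR adjusted p = 0.321). TJP3 (ZO-3, 0.13) and the adhesion molecule F11R (JAM-A, 0.07) had edgeR adjusted p-values of 0.358 and 0.518 for these log2 changes. CLDN7 showed the largest log2 change among tight junction members that did not pass, at 0.27 (edgeR adjusted p = 0.0984). It lay at 11.98, 11.7 and 8.80 CPM and 12.1, 13.3 and 14.0 CPM, without overlap of the groups. It shares 38 exonic bases with ELP5, an opposite-strand gene with a count of 345% of its own.

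CLDN2 and CLDN14 were too low to be tested. CLDN2, a claudin that forms cation pores, had 6, 10 and 9 counts in the controls and 2, 11 and 5 counts with the hairpin. CLDN14 had 0, 0 and 3 counts in the controls and 1, 1 and 1 with the hairpin. No change in either was detectable at this depth.

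Of 26 other tight junction genes listed, 21 were tested, of which 3 rose, 1 fell and 17 did not pass. That is 19% called, near the 15.5% of all genes tested. The angiomotins AMOT (0.41, edgeR adjusted p = 0.00492) and AMOTL1 (0.29, 0.00868), actin-binding scaffolds of the junction, rose on the log2 scale. LSR (0.10, edgeR adjusted p = 0.0423), which places tricellulin at cell corners, also rose. MPDZ, a multi-PDZ scaffold related to PATJ, fell (-0.35, edgeR adjusted p = 0.000581). The AMOT call was lost without shcontrol replicate 1 (edgeR adjusted p = 0.139) and that of AMOTL1 on leaving out 1 of shcontrol replicate 1 (0.0628), shcontrol replicate 2 (0.0826) and shITGB5 replicate 1 (0.0731). The LSR call was lost without any 1 library except shcontrol replicate 3 (0.0588 to 0.201), with library totals only (0.0519) and with no low-count filter (0.0583).

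None of the 4 polarity members passed the test (0% called, beside 15.5% of all genes tested). With only 4 genes, that share does not set them apart from all genes. The edgeR quasi-likelihood test called 0, DESeq2 also called 0, and 1 of the 4 members (CRB3) had an unadjusted p under 0.05. These proteins set the border between the apical and lateral membrane. CRB3 (Crumbs 3, the apical determinant) lay at 32.3, 30.3 and 32.8 CPM in the controls and at 34.6, 35.0 and 35.6 CPM with the hairpin (log2 change 0.14, edgeR adjusted p = 0.162). Its groups did not overlap, and its 15 exonic bases shared with DENND1C on the other strand have a partner of equal count (99.5%). PARD3, the scaffold of the PAR complex, lay at 54.0, 54.6 and 52.5 CPM and 56.1, 53.4 and 56.5 CPM, with overlap (log2 change 0.04, edgeR adjusted p = 0.686). PATJ (0.08) and PARD6B (-0.02) had edgeR adjusted p-values of 0.394 and 0.947 for their log2 changes.

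Some partners of these polarity proteins changed. Of 13 other polarity genes listed, 12 were tested, of which 3 rose, 3 fell and 6 did not pass. That is 50% called, beside 15.5% of all genes tested. The atypical protein kinase C genes, whose products PARD6 binds, both fell: PRKCZ from 14.1 CPM ± 0.843 to 10.1 CPM ± 1.65 (log2 change -0.49, SE 0.115, adjusted p = 0.000665, edgeR) and PRKCI from 85.7 CPM ± 5.17 to 71.6 CPM ± 4.93 (log2 change -0.26, SE 0.047, adjusted p = 8.67e-06, edgeR). LIN7C, an adaptor of the Crumbs complex, went from 54.2 CPM ± 4.68 to 42.9 CPM ± 2.01 and fell by 0.34 on the log2 scale (edgeR adjusted p = 1.86e-06). MPP5 (PALS1), the scaffold between CRB3 and PATJ, rose by 25.5% (interval 10.6% to 42.5%, edgeR adjusted p = 0.00597), with group means of 15.3 and 19.2 CPM. SCRIB (0.12) and PARD3B (0.26) rose on the log2 scale with edgeR adjusted p-values of 0.00922 and 0.0457. The PARD3B call was lost without any 1 of the 6 libraries (0.0557 to 0.15), in DESeq2 (0.0596) and with no low-count filter (0.0859), and that of SCRIB without shcontrol replicate 2 or shITGB5 replicate 2 (0.136 and 0.0587). PRKCZ shares 590 exonic bases with FAAP20, an opposite-strand gene with a count of 207% of that of PRKCZ (log2 change -0.11). It also shares 83 with PRKCZ-AS1 on the other strand (24.0% of its count, log2 change -0.40). Neither partner passed the test, and the part of these shared bases in the PRKCZ value was not tested.

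Among the 7 desmosomal members, 1 rose, 1 fell and 5 did not pass (28.6% called, beside 15.5% of all genes tested). The sum over these members overlapped between groups (1032 to 1065 CPM and 1046 to 1053 CPM). DSP (ENSG00000096696, chromosome 6, 7541575 to 7586717, plus strand) encodes desmoplakin, the plaque protein that binds keratin filaments. It lay at 291, 309.6 and 309.9 CPM in the controls and at 278, 279 and 279 CPM with the hairpin. The 3 shITGB5 libraries were nearly equal and below all controls. DSP fell by 8.07% (interval -11.6% to -4.39%; log2 change -0.12, SE 0.029, adjusted p = 0.000712, edgeR).

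PKP2 (ENSG00000057294, chromosome 12, 32790745 to 32896840, minus strand) encodes plakophilin 2, an armadillo protein of the plaque. Its levels were 127, 132 and 128 CPM in the controls and 141, 135 and 139.8 CPM with the hairpin. PKP2 rose by 7.40% (interval 2.17% to 12.9%; log2 change 0.10, SE 0.036, adjusted p = 0.0382, edgeR). Leaving out shcontrol replicate 1 ended that call (edgeR adjusted p = 0.177), as did leaving out shcontrol replicate 3 (0.121), shITGB5 replicate 1 (0.155) or shITGB5 replicate 3 (0.132). It was lost as well with no low-count filter (0.0513).

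The desmosomal cadherins did not pass. DSC2 (desmocollin 2) lay at 17.4, 18.8 and 18.7 CPM in the controls and at 20.7, 20.6 and 22.2 CPM with the hairpin, without overlap (log2 change 0.21, edgeR adjusted p = 0.0939). DSG2 (desmoglein 2) lay at 69.7, 74.5 and 69.6 CPM and 76.2, 71.6 and 69.3 CPM, with overlap (0.02, 0.84). Plakophilin 3 (PKP3), the desmosomal member with the highest level per length, lay at 141, 134 and 141 CPM and 133, 148 and 144 CPM (log2 change 0.03, edgeR adjusted p = 0.684). PKP4, an armadillo protein related to p120-catenin (0.03), and PPL (periplakin, 0.00) had edgeR adjusted p-values of 0.664 and 0.997 for their log2 changes. Of 7 other desmosomal genes listed, only PERP and DSC3 were abundant enough to be tested. PERP, a 4-span desmosomal protein, gave 0.00 and DSC3 0.35 on the log2 scale (edgeR adjusted p = 0.956 and 0.584).

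The simple keratins that make up most of the keratin mRNA kept narrow ranges. KRT8 (ENSG00000170421, chromosome 12, 52897187 to 52949954, minus strand) lay at 4569, 4486 and 4549.9 CPM in the controls and at 4529.6, 4659 and 4534 CPM with the hairpin. KRT18 (ENSG00000111057, chromosome 12, 52948871 to 52952901, plus strand), its filament partner, lay at 1605, 1604 and 1563 CPM and 1620.0, 1602 and 1564 CPM. The changes were 0.870% for KRT8 (interval -1.55% to 3.35%, edgeR adjusted p = 0.732) and 0.294% for KRT18 (interval -2.46% to 3.12%, 0.934). The interval of each thus excludes a change of 5% in either direction. Per length, KRT18 was 0.734 to 0.765 of KRT8 in the controls and 0.735 to 0.765 with the hairpin. These ratios rest on merged exon lengths of 3218 bases for KRT18 and 6881 for KRT8. The 2 genes share 525 exonic bases on opposite strands. The table lists 50 pseudogenes named after KRT8 and 67 named after KRT18, whose counts summed to 0.33% and 0.151% of the parent gene's, so reads shared with near-identical copies leave the values somewhat uncertain.

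KRT23 (ENSG00000108244, chromosome 17, 40922696 to 40937634, minus strand), a type I keratin of low abundance here, lay at 14.2, 13.2 and 13.9 CPM in the controls and at 18.2, 17.1 and 19.1 CPM with the hairpin. All shITGB5 libraries were above all controls. KRT23 rose by 31.5% (interval 15.2% to 50.1%; log2 change 0.40, SE 0.096, adjusted p = 0.00113, edgeR). KRT19 lay at 481, 461 and 489 CPM in the controls and at 481, 503 and 487 CPM with the hairpin, with overlap (log2 change 0.04, edgeR adjusted p = 0.345). Of 14 other keratins listed, only KRT10, KRT80 and KRT7 were abundant enough to be tested. Their log2 changes of 0.12, -0.46 and -0.0047 had edgeR adjusted p-values of 0.568, 0.471 and 0.997.

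Among gap junction genes, connexin 43 rose and connexin 32, the main connexin of hepatocytes in liver, did not pass the test. GJA1 (ENSG00000152661, chromosome 6, 121435577 to 121449727, plus strand) lay at 435, 421 and 415 CPM in the controls and at 555, 547 and 550.3 CPM with the hairpin. The lowest shITGB5 library was above the highest control by more than the range of either group. GJA1 rose by 30.0% (interval 25.6% to 34.6%; log2 change 0.38, SE 0.025, adjusted p = 3.30e-26, edgeR), and it was the only member whose change passed an edgeR test against a fold of 1.2 (adjusted p = 0.000149). GJB1 (connexin 32), at 2.16 FPKM against 143 for GJA1, lay at 5.73, 4.29 and 5.76 CPM and 4.84, 5.93 and 5.62 CPM, with overlap (log2 change 0.05, edgeR adjusted p = 0.894). Its interval, -17.5% to 30.5%, is too wide to exclude a change of the size seen in GJA1. Of 8 other gap junction genes listed, 3 were tested, of which PANX1, a pannexin channel, rose (0.26, edgeR adjusted p = 0.0289). That is 33.3% called, beside 15.5% of all genes tested. The PANX1 call was lost without any 1 library except shcontrol replicate 1 (0.0635 to 0.152), and with no low-count filter (0.0525).

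**Figure D4:**
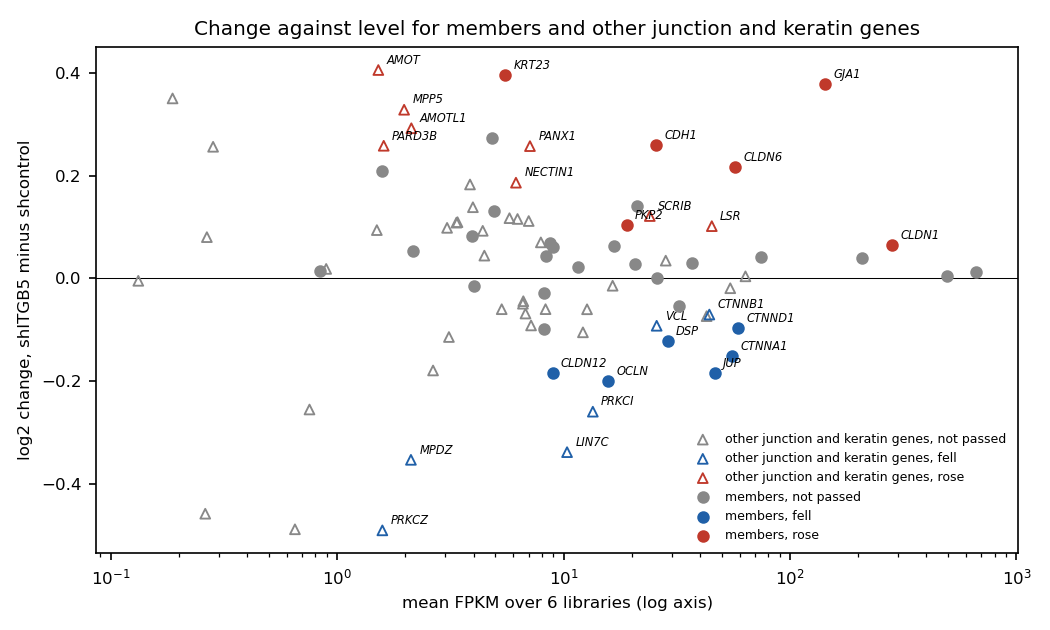
Log2 change (shITGB5 minus shcontrol) against the mean FPKM over 6 libraries (log axis) for the 35 tested members (circles) and 49 other tested junction and keratin genes (triangles), in red where they rose, blue where they fell and grey where they did not pass. GJA1 stands apart as an abundant gene with a large rise, while most abundant members lie close to 0.

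Counted over all 79 other junction and keratin genes listed, 49 were tested, of which 8 rose and 6 fell (28.6%, beside 15.5% of all genes tested). The share was 23.5% among all genes with a mean of at least 10 CPM, and the 49 were not matched for level. They were listed with earlier results of these data known. Their median log2 change was 0.02.

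Markers of the labelled cell type were present, and some of them moved with the groups. The share called was 66.7% of tested hepatocyte, 42.9% of bile duct and 16.7% of fibroblast markers, beside 15.5% of all genes tested. Hepatocyte markers summed to 4297 to 4406 CPM in the controls and 4901 to 5007 CPM with the hairpin, and 4 of 6 rose: TTR (0.68), APOA1 (0.36), AFP (0.30) and ALB (0.18) on the log2 scale. The highest edgeR adjusted p of these was 1.68e-05, for APOA1. Bile duct markers summed to 435 to 457 CPM and 433 to 445 CPM. Of 7, SPP1 (0.25) and EPCAM (0.11) rose, SOX9 (-0.18) fell, 4 did not pass, and the defining duct keratin KRT7 was near 0, at a mean of 0.542 CPM in each group. Leaving out shcontrol replicate 1 (edgeR adjusted p = 0.0551), shcontrol replicate 3 (0.118) or shITGB5 replicate 1 (0.0978) ended the EPCAM call. The SPP1 call was lost without shcontrol replicate 1 or shITGB5 replicate 3 (0.0887 and 0.0646). Fibroblast markers summed to 308 to 322 CPM and 343 to 355 CPM, of which LUM rose (0.22, edgeR adjusted p = 9.70e-08) and 5 others were tested and did not pass. COL1A2 (130.0 CPM on average in controls, 137 CPM in shITGB5 libraries) supplied most of the rest of that sum. PDGFRA (18.6 and 20.9 CPM) and COL1A1 (18.4 and 18.5 CPM) were also expressed, COL3A1 and PDGFRB lay at group means of at most 2.75 CPM, and DCN, ACTA2 and THY1 at no more than 0.379 CPM. Endothelial markers summed to 3.55 to 5.63 CPM and 4.18 to 5.51 CPM, and blood markers to 6.42 to 7.52 CPM and 6.53 to 6.87 CPM, nearly all of it from PECAM1 in the former and from LYZ in the latter. The part of the hepatocyte and LUM rises in the junction gene values was not tested.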

How the data were processed

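RNA from 6 Huh7 libraries (3 per hairpin) was sequenced after a directional library kit, per the labels' protocols. The authors deposited a table of 58735 genes that holds whole-number counts (100% of values), although its name speaks of FPKM. The aligner, the counter and whether strand was used are not given in the sources, so overlapping and antisense genes may share reads. The column codes S and NC were read as ITGB5 hairpin and control hairpin, which the labels do not spell out. All 58735 gene IDs occur in GENCODE 29 (GRCh38), and 58724 of them have the same start, end and strand there.

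Genes were kept by filterByExpr and scaled by TMM, and the counts were fitted with edgeR 4.0.16 (quasi-likelihood, robust, two-sided, R 4.3.3). CPM and FPKM were computed from the counts, the latter over the deposited gene length, in bases. The fit was run on simulated counts with a single dispersion for all genes, independent replicates and fewer changed genes than were called here. Because that setting differs from these data, it does not show how well the calls here are calibrated. Members and lists were chosen with earlier results of these data known. Text names members past the threshold, the most abundant others by role, and up to 4 called genes per further list, or 2 where none passed; CDH2, SNAI1, SNAI2, ZEB1, ZEB2, PARD3B and SCRIB were added after their values were seen. Alternatives were RLE factors, library totals, DESeq2 1.42.0, other filters, a replicate block, each library left out, a fold minimum and non-robust fitting.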

Additional observations from a re-analysis of the deposited data

How the results depend on the processing

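The 12 members past the threshold stayed 12 in number with RLE factors, library totals, DESeq2, a minimum mean of 1 CPM and, an alternative chosen after seeing the data, edgeR without robust fitting. Without a low-count filter 11 passed, and 9 to 12 with 1 library left out. With the replicate number as a block 10 passed, as CLDN1 (edgeR adjusted p = 0.0537) and PKP2 (0.0534) were lost. Among other named genes, CTNNB1 (adjusted p = 0.0678), LSR (0.0596) and PARD3B (0.0522) were lost with that block in edgeR. In same-numbered libraries, deviations from the group means had correlations of 0.0034, -0.0544 and -0.0156 over 10561 genes. No library correlated best with the one of its own number. The labels do not say whether equal numbers mark a pair. With 3 libraries per group these values cannot exclude a shared batch. Tested against a fold of 1.2, 1 member passed, and 148 of all genes in place of 2569. Over all genes the count was 2581 with RLE factors, 2569 with library totals, 2596 with the 1 CPM minimum, 2499 with the block, 2197 with DESeq2, 2154 without a filter, 2495 without robust fitting and 2043 to 2238 with 1 library left out. No member and no other named gene past the threshold changed direction in these alternatives. Genes that had not passed did so when 1 library was left out, with these log2 ranges over the 6 fits: TJP1 (-0.059 to 0.00049), CLDN9 (-0.33 to 0.25), PARD6B (-0.055 to 0.025), DSG2 (-0.020 to 0.053), PKP3 (-0.0020 to 0.072), PPL (-0.015 to 0.011), KRT8 (-0.0022 to 0.019), KRT18 (-0.010 to 0.018), GJB1 (-0.076 to 0.13), PERP (-0.024 to 0.026), SNAI2 (-0.15 to 0.019), ZEB1 (-0.10 to 0.055), ZEB2 (-0.23 to 0.020) and PECAM1 (-0.13 to 0.20). CLDN9 was also below 0 with the block (-0.021), and PPL with RLE factors (-0.000857), library totals (-0.0030) and the 1 CPM minimum (-0.000548). The cause was not tested. CLDN2 and CLDN14 are limited by depth.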
